A study of Mus musculus with 12 samples.

Results

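The 44 genes described here act at the entry into the cell cycle and in DNA replication. They were chosen by symbol from the 20778 rows of the count table and comprise 7 G1 cyclins and kinases, 3 inhibitors of cyclin-dependent kinases (CDK), 2 pocket proteins, 3 E2F factors, 10 origin recognition and licensing genes, 6 helicase activation genes, 4 nucleotide supply genes, 4 fork, repair and chromatin genes and 5 mitotic and proliferation markers. All 44 passed the filter on low counts. Spleen cells of C57BL/6 mice, 6 weeks old by the labels, were enriched for CD8 T cells with magnetic beads, and were then kept for 6 hours in culture without treatment (Naïve), or with 1 of 3 stimuli, namely an antibody to the CD3 chains of the T cell receptor (αCD3, 1 µg/ml), the cytokine IFNγ, that is interferon gamma (70 ng/ml), and LPS, a lipopolysaccharide of bacteria that is sensed by Toll-like receptor 4 (1 µg/ml). The doses of αCD3 and LPS also appear as mg/ml elsewhere in the labels, so that their unit is uncertain, and older mice are named in the methods of the study. RNA was sequenced in 12 libraries, 3 for each of the 4 groups, with about 10196200 to 27610200 counts per library. The labels do not say whether replicates came from separate mice or cultures, so that p-values measure only the spread between these libraries.

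The labelled cell type was checked against marker genes. The defining markers of CD8 T cells were present in every library, with Cd8a at a mean of 234 CPM (counts per 1000000 of the scaled library) in Naïve, 432 CPM in αCD3, 243 CPM in IFNγ and 205 CPM in LPS. All 10 B cell markers were detected too, and their summed level exceeded that of the 9 T cell markers of the table in every library. The B cell sum stood at 3589, 3717 and 3411 CPM in the Naïve libraries, at 2774, 2389.8 and 2389.6 CPM in αCD3, at 2837, 2818 and 2732 CPM in IFNγ and at 3071, 2050.5 and 2106 CPM in LPS. The T cell sum ranged from 1614 to 1799 CPM in Naïve, from 2157 to 2329.8 CPM in αCD3, from 1632 to 1792 CPM in IFNγ and from 1326 to 1525 CPM in LPS. Thus every treated library held a lower B cell sum than every Naïve library, and in LPS the sum was higher in replicate 1 than in replicates 2 and 3. The 14 myeloid markers summed to between 326 and 856 CPM, with Clec4f at 0 in every αCD3, IFNγ and LPS library, and the 6 NK cell markers to between 97.5 and 288 CPM. Both sums were lowest in replicate 1 of each group. The 7 plasmablast and germinal centre markers, mostly Jchain, summed to 1033 to 1084 CPM in Naïve, 707 to 799.7 CPM in αCD3, 1114 to 1213 CPM in IFNγ and 878 to 935 CPM in LPS. The 4 CD4 T cell markers summed to 67.2 to 109 CPM. The 8 erythroid markers separated the replicate numbers, with 339 to 575 CPM in the 4 libraries numbered 1 and 1298 to 4139.5 CPM in the others. The part that these other cells took in the values below was not tested. Since whole populations were lysed, fewer cells of a type and less RNA per cell cannot be told apart.

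A resting lymphocyte holds its CDKs inactive through inhibitors such as p27, and holds its replication genes silent through pocket proteins that bind E2F factors. Signals through antigen receptors, Toll-like receptors or cytokine receptors raise D-type cyclins, which with CDK4 and CDK6 phosphorylate the pocket proteins, release E2F and so permit the loading of MCM helicases on origins and the supply of nucleotides. Genes of mitosis follow later, after the DNA has been copied.

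Some of these genes hold E2F words near their start, and examples are shown because they tell which of the members described below hold such a word and which do not. Promoters of 36 of the 44 members were found in the RefSeq table of GRCm38.p6, each from 250 bases before to 50 bases after a start, and not for Ccnd2, Ccne2, Rb1, Mcm4, Gins1, Gins2, Gins4 and Ccna2. The words TTTGGCGC, TTTCGCGC and TTCCCGCC were searched on both strands. Windows of 200 bases that end at the base before the start are printed 5′ to 3′ on the strand of the gene, except that the Ung window ends 50 bases before the RefSeq start, where the GENCODE transcript begins. Capitals mark the E2F words. Where 2 words overlap on opposite strands, as in Mcm6 and Mcm5, the capitals cover both.
Mcm6 (chr1:128359706-128359905, minus strand): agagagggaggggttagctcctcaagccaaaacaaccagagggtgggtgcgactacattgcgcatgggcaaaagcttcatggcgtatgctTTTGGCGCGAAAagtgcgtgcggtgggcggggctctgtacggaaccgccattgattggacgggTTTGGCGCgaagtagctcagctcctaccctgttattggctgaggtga
E2f3 (chr13:29986064-29986263, minus strand): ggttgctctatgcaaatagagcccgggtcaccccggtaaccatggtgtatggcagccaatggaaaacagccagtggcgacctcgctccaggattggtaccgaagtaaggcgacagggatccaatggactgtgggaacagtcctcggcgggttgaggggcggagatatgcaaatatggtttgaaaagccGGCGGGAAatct
Mcm5 (chr8:75109309-75109508, plus strand): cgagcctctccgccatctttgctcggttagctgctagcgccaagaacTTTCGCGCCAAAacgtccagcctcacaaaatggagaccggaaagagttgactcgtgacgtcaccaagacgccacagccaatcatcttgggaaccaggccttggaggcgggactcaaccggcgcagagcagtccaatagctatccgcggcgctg
Ung (chr5:114130186-114130385, plus strand): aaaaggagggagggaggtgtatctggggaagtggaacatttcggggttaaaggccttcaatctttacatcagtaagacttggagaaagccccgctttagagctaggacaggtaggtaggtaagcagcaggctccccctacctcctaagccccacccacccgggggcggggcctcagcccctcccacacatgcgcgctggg

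Mcm6, which rose in all 3 treatments, held TTTGGCGC at 110 and at 47 bases before the start and TTTCGCGC on the other strand at 106 bases. E2f3, which rose in LPS, held TTCCCGCC on the other strand at 12 bases before one of its starts. Mcm5 held an overlapping pair at 153 and 149 bases and was not called against Naïve without the replicate block, and Ung, which rose in αCD3 and LPS, held no such word. Over all members, 12 of 36 (33.3%) held at least 1 of the 3 words, namely E2f2, E2f3, Orc1, Cdt1, Mcm3, Mcm5, Mcm6, Mcm7, Rrm1, Uhrf1, Chaf1a and Cdk1, beside 6.45% of 9635 genes tested and 2.96% of 32851 promoters. In Mcm3, E2f2, Mcm7 and Cdt1 the words lay after the start and within the 50 bases searched there. For some members, among them E2f1, Cdc6, Cdk6, Cdkn2c and Mcm7, every window lay after the first GENCODE start of the gene. The bases before that first start were not searched in these members, so that E2f1 or Cdc6 may hold a word there. The CCAAT box stood in 25 of 36 members (69.4%) beside 43% of the genes tested, and the word TTTGAA of the cell cycle homology region in 9 of 36 (25%) beside 14.7%. In LPS, 5 of the 12 members with an E2F word were called higher and 1 lower, against 8 and 4 of the 24 without. In αCD3 these counts were 3 and 2 of 12 against 5 and 5 of 24, and in IFNγ 1 and 0 against 0 and 2. All genes tested were called higher and lower in 26.9% and 22.3% in LPS, 22.9% and 15.7% in αCD3, and 8.17% and 4.27% in IFNγ. Members with and without a word were not tested against each other or against these shares. A match describes letters in this window and not a site in use.

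Against Naïve, a gene was called where its adjusted p was under 0.05 in a fit over 12122 genes. In αCD3, 9 of 44 members (20.5%) were called higher and 8 (18.2%) lower, beside 22.9% and 15.7% of all genes tested. Without αCD3 replicate 2 these counts were 8 and 4, when 3131 of 12337 genes were called in either direction, against 4681 of 12122 before. In LPS, 15 members (34.1%) were called higher and 6 (13.6%) lower, beside 26.9% and 22.3% of all genes. In IFNγ, 2 members (4.55%) were called higher and 2 lower, beside 8.17% and 4.27% of all genes. The members' shares were not tested against these. The median log2 fold change of the members was 0.064 in αCD3, -0.0011 in IFNγ and 0.28 in LPS, where that of all genes was -0.02, -0.02 and -0.01. These 3 comparisons share the Naïve libraries.

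**Figure D1:**
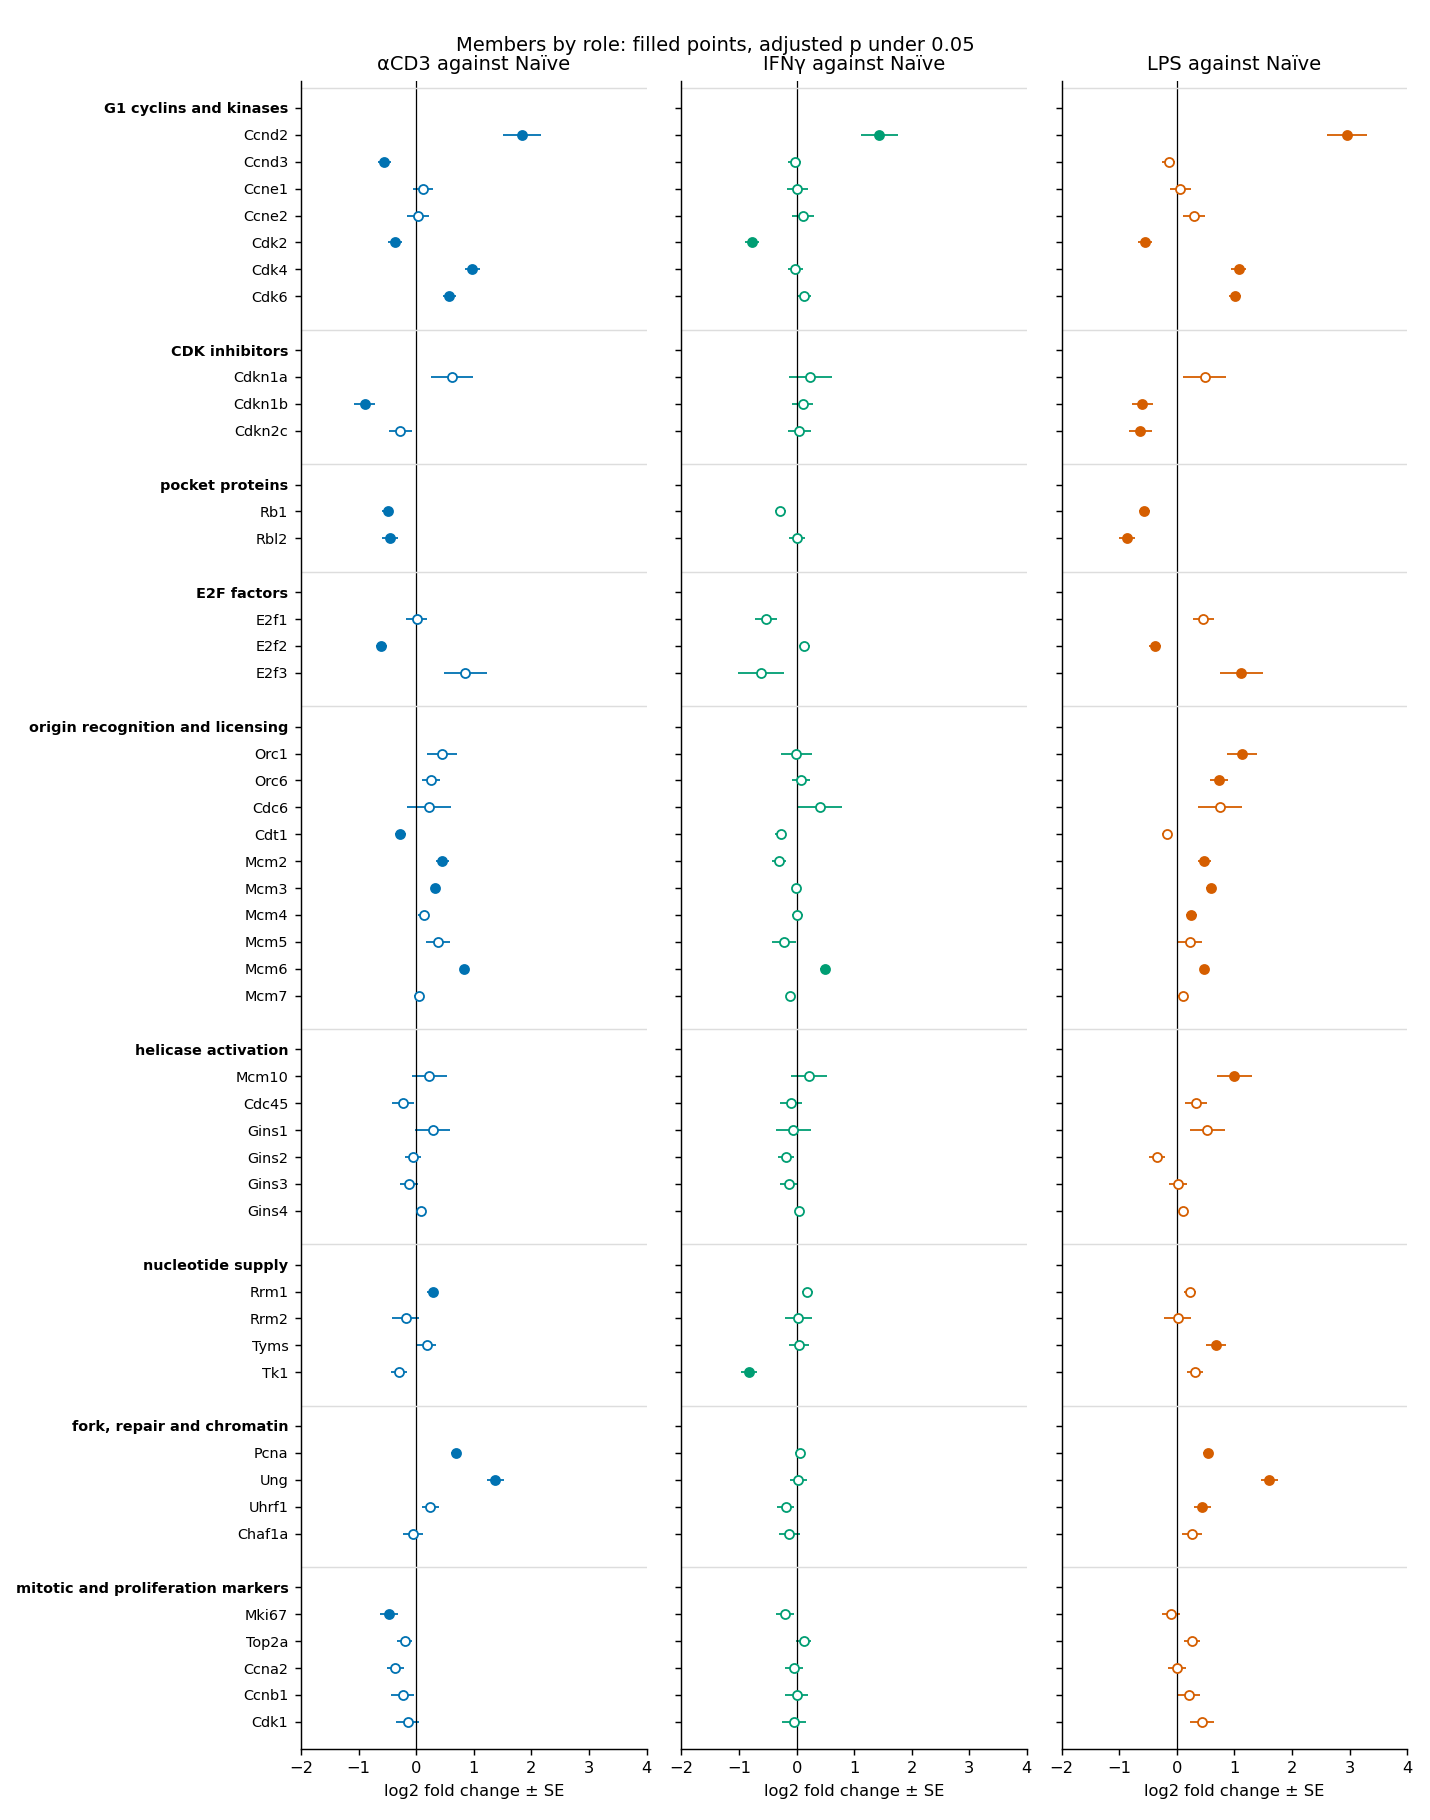
Log2 fold change against Naïve (x axis, ± SE) of the 44 members, ordered by role, in αCD3, IFNγ and LPS. Filled points have an adjusted p under 0.05. Ccnd2 lies farthest to the right in each panel, and the IFNγ panel holds 4 filled points against 17 in αCD3 and 21 in LPS.

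Replicates with the same number deviated together, and with the number as a block the counts were 12 higher and 10 lower in αCD3, 4 higher and 7 lower in IFNγ, and 22 higher and 7 lower in LPS. Every call made without the block in these comparisons was kept, and 11 instead of 4 members were then called in IFNγ. Members called in either direction then made up 50%, 25% and 65.9% in αCD3, IFNγ and LPS, beside 52.4%, 24.9% and 59.5% of all genes. The block added Cdkn1a, Mcm5 and Uhrf1 (higher) and Top2a and Ccna2 (lower) in αCD3, Cdkn1a and Rrm1 (higher) and Rb1, E2f1, Cdt1, Mcm2 and Mki67 (lower) in IFNγ, and Cdkn1a, E2f1, Cdc6, Gins1, Rrm1, Top2a and Cdk1 (higher) and Cdt1 (lower) in LPS. Without the 4 libraries numbered 1, a choice made after the data were seen, 10 members were called higher and 6 lower in αCD3, 3 and 5 in IFNγ, and 21 and 7 in LPS, in all 36.4%, 18.2% and 63.6% of members beside 48.8%, 23.3% and 55.1% of all genes. Scaling by library size alone moved the median of all genes to -0.13 in αCD3, -0.16 in IFNγ and -0.22 in LPS, and the split of calls to 12 higher and 9 lower in LPS and to 2 higher and 6 lower in IFNγ.

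Called higher were Ccnd2, Ung, Cdk4, Mcm6, Pcna, Cdk6, Mcm2, Mcm3 and Rrm1 in αCD3, Ccnd2 and Mcm6 in IFNγ, and Ccnd2, Ung, Orc1, E2f3, Cdk4, Cdk6, Mcm10, Orc6, Tyms, Mcm3, Pcna, Mcm2, Mcm6, Uhrf1 and Mcm4 in LPS. Called lower were Cdkn1b, E2f2, Ccnd3, Rb1, Mki67, Rbl2, Cdk2 and Cdt1 in αCD3, Tk1 and Cdk2 in IFNγ, and Rbl2, Cdkn2c, Cdkn1b, Rb1, Cdk2 and E2f2 in LPS. The other 18 members were called in none of the 3 without the block. To be called in one treatment and not in another does not show that the treatments differ, and the direct comparisons are given further on.

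Of the G1 cyclins and kinases, 3 of 7 rose and 2 fell in αCD3, 3 rose and 1 fell in LPS, and 1 rose and 1 fell in IFNγ. This and the later counts by role stand beside 22.9% of all genes called higher and 15.7% lower in αCD3. The shares of all genes were 26.9% and 22.3% in LPS and 8.17% and 4.27% in IFNγ. The counts by role were not tested against these shares. Ccnd2 encodes cyclin D2, a D-type cyclin of lymphocytes, and lies on chromosome 6 (127125162 to 127152193, minus strand, mm10). It stood at 127, 189 and 205 CPM in the Naïve libraries, at 386, 794 and 690.1 CPM in αCD3, at 289, 565 and 555 CPM in IFNγ and at 1064, 1610.0 and 1353 CPM in LPS. Every treated library exceeded every Naïve library, and replicate 1 was the lowest of its group in each of the 4 groups. The level rose 3.59-fold in αCD3 (log2 fold change 1.84 ± 0.33, adjusted p = 0.00161), 2.71-fold in IFNγ (1.44 ± 0.33, adjusted p = 0.0172) and 7.73-fold in LPS (2.95 ± 0.34, adjusted p = 7.04e-05). The IFNγ call was lost without Naïve replicate 1 or 2 or without IFNγ replicate 2 or 3, with log2 fold changes of 1.25 to 1.502 and adjusted p between 0.0522 and 0.0684, whereas with the block it stood at 6.26e-05.

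Ccnd3, which encodes cyclin D3, moved the other way. Its values were 116, 133 and 148 CPM in Naïve, 86.7, 87.1 and 96.2 CPM in αCD3, 114, 134 and 139 CPM in IFNγ and 112, 112 and 134 CPM in LPS. The αCD3 libraries lay below all others and fell by log2 0.56 (SE 0.11, adjusted p = 0.00279), while the difference from Naïve was -0.03 ± 0.11, adjusted p = 0.885 in IFNγ and -0.15 ± 0.11, adjusted p = 0.3 in LPS. Per kilobase of its longest coding transcript, the mean Ccnd3 level of 62.6 CPM in Naïve exceeded the 27.4 CPM of Ccnd2, and in LPS the order was opposite, with 56.6 CPM for Ccnd3 and 212 CPM for Ccnd2.

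Cdk4 and Cdk6, the kinase partners of D-type cyclins, rose together in αCD3 and LPS. Cdk4 was found at 117, 140.4 and 137 CPM in Naïve, 213, 291 and 270.3 CPM in αCD3, 115, 129.8 and 144 CPM in IFNγ and 249, 291 and 289 CPM in LPS. The αCD3 and LPS libraries did not overlap with Naïve, while IFNγ did, and the differences from Naïve were 0.97 ± 0.13, adjusted p = 0.000223 in αCD3, 1.07 ± 0.13, adjusted p = 7.32e-05 in LPS and -0.02 ± 0.13, adjusted p = 0.947 in IFNγ. Cdk6 was found at 42.5, 50.7 and 52.3 CPM in Naïve, 62.4, 77.0 and 77.0 CPM in αCD3, 47.7, 57.6 and 53.8 CPM in IFNγ and 89.9, 101 and 101 CPM in LPS. Its increase was 0.57 ± 0.11, adjusted p = 0.00242 in αCD3 and 1.01 ± 0.11, adjusted p = 4.21e-05 in LPS, and the LPS libraries lay above those of αCD3. The transcripts of Cdk4 overlap those of Tspan31 on the opposite strand, and 80.5% of its 31-base words are its own. As the strand setting of the counting is not given in the sources used here, reads from such overlaps cannot be assigned with certainty.

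Cdk2, the kinase partner of cyclins E and A, fell in all 3 treatments. It stood at 39.0, 32.8 and 34.1 CPM in Naïve, 29.7, 23.5 and 28.7 CPM in αCD3, 24.1, 17.6 and 20.2 CPM in IFNγ and 25.3, 22.8 and 24.0 CPM in LPS. No treated library reached the lowest Naïve library, and the log2 fold change was -0.37 ± 0.12, adjusted p = 0.037 in αCD3, -0.77 ± 0.13, adjusted p = 0.00302 in IFNγ and -0.55 ± 0.13, adjusted p = 0.00427 in LPS. The αCD3 call was lost when any of 6 libraries was left out (Naïve replicate 1 or 3, αCD3 replicate 2 or 3, IFNγ replicate 3 or LPS replicate 3), with adjusted p up to 0.141. Ccne1 and Ccne2 encode the E-type cyclins that open S phase, and neither was called. Ccne1 stood at 11.1, 11.1 and 13.4 CPM in Naïve, 9.23, 15.5 and 14.2 CPM in αCD3, 10.6, 12.5 and 12.9 CPM in IFNγ and 11.8, 12.1 and 13.1 CPM in LPS. Ccne2 stood at 5.36, 4.85 and 6.59 CPM in Naïve, 6.13, 6.12 and 4.83 CPM in αCD3, 4.53, 6.54 and 7.11 CPM in IFNγ and 7.05, 7.06 and 6.67 CPM in LPS. For both, the groups overlapped with Naïve in αCD3 and IFNγ, and the differences from Naïve lay between 0.02 and 0.30 on the log2 scale with SE of 0.18 or 0.19. In LPS all Ccne2 values lay just above Naïve.

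**Figure D2:**
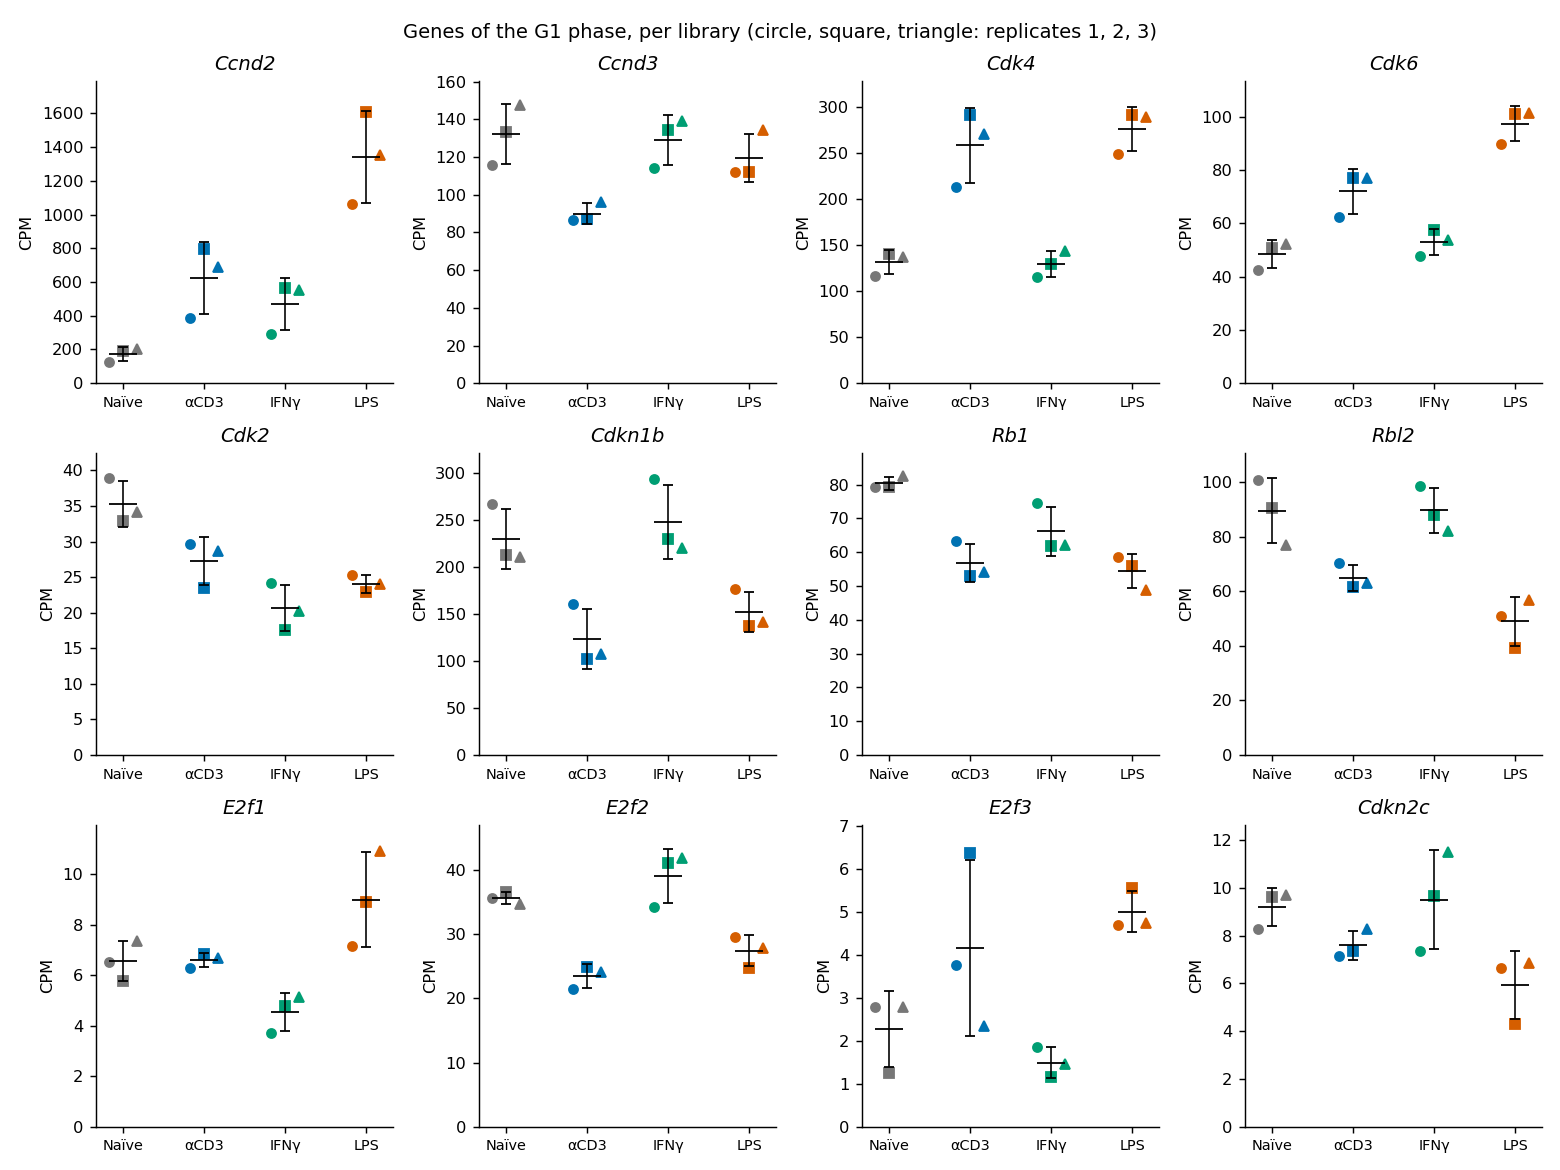
Level in CPM (y axis, from 0) of 12 genes of the G1 phase in each library of the 4 groups. Points are libraries, the horizontal bar is the group mean and the whiskers show the SD of 3 libraries. Ccnd2, Cdk4 and Cdk6 stand above Naïve in αCD3 and LPS, where Cdkn1b, Rb1 and Rbl2 stand below it.

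Of the 3 CDK inhibitors, 1 fell in αCD3, 2 fell in LPS and none was called in IFNγ, where none had an unadjusted p under 0.05 and DESeq2 made no call, although the block called Cdkn1a higher in all 3. Cdkn1b, which encodes the CDK inhibitor p27 of resting lymphocytes, stood at 267, 213 and 211 CPM in Naïve, 160.4, 102 and 108 CPM in αCD3, 293, 229.9 and 220.2 CPM in IFNγ and 176, 138 and 141 CPM in LPS. The αCD3 and LPS libraries lay below all Naïve and IFNγ libraries, and replicate 1 was the highest in each group. The fold changes were -0.90 ± 0.19, adjusted p = 0.00372 in αCD3, -0.60 ± 0.19, adjusted p = 0.0209 in LPS and 0.11 ± 0.19, adjusted p = 0.774 in IFNγ. The LPS call was lost without Naïve replicate 1, LPS replicate 2 or LPS replicate 3 (adjusted p 0.071 to 0.081) and stood at 2.14e-05 with the block.

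Cdkn2c encodes p18, an inhibitor of CDK4 and CDK6. It was found at 8.28, 9.61 and 9.68 CPM in Naïve, 7.15, 7.36 and 8.29 CPM in αCD3, 7.36, 9.64 and 11.5 CPM in IFNγ and 6.64, 4.28 and 6.83 CPM in LPS. The LPS libraries were below Naïve (-0.63 ± 0.20, adjusted p = 0.0243), a call that was lost without Naïve replicate 2, Naïve replicate 3 or LPS replicate 2 (log2 fold changes of -0.60 to -0.44, adjusted p up to 0.0898), and the αCD3 difference was -0.27 ± 0.20, adjusted p = 0.299.

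Cdkn1a encodes p21, a CDK inhibitor that is also a target of p53. It stood at 37.7, 75.6 and 76.3 CPM in Naïve, 63.0, 115 and 113 CPM in αCD3, 44.7, 84.4 and 94.5 CPM in IFNγ and 58.9, 106 and 98.9 CPM in LPS. Replicate 1 held the lowest value of each group, and within each replicate number all 3 treated libraries exceeded the Naïve library. The fit without the block made no call (0.62 ± 0.37, adjusted p = 0.211 in αCD3, 0.24 ± 0.37, adjusted p = 0.742 in IFNγ and 0.48 ± 0.37, adjusted p = 0.306 in LPS). With the replicate block the adjusted p was 1.99e-05 in αCD3, 0.0219 in IFNγ and 8.58e-05 in LPS, and without the 4 libraries numbered 1 it was 0.000107, 0.0484 and 0.000583.

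Rb1 and Rbl2, the pocket proteins pRB and p130 that hold E2F target genes silent in resting cells, fell in αCD3 and LPS. Rb1 stood at 79.3, 79.3 and 82.6 CPM in Naïve, 63.3, 53.1 and 54.0 CPM in αCD3, 74.5, 61.9 and 62.0 CPM in IFNγ and 58.6, 55.9 and 48.8 CPM in LPS. Every treated library was below every Naïve library, with -0.50 ± 0.10, adjusted p = 0.00265 in αCD3 and -0.56 ± 0.10, adjusted p = 0.000947 in LPS, while the IFNγ difference of -0.28 ± 0.10 had an adjusted p of 0.0948 and, with the block, of 0.0161. Rbl2 stood at 101, 90.6 and 77.1 CPM in Naïve, 70.4, 61.5 and 62.9 CPM in αCD3, 98.7, 87.9 and 82.3 CPM in IFNγ and 51.0, 39.1 and 56.8 CPM in LPS. It fell by log2 0.87 in LPS (SE 0.14, adjusted p = 0.000515), and the IFNγ difference was 0.00 ± 0.14. Its αCD3 call (-0.46 ± 0.14, adjusted p = 0.0223) was lost without Naïve replicate 1 or 2 or αCD3 replicate 2 or 3, with adjusted p up to 0.0846, and without the 4 libraries numbered 1 (0.0704).

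The 3 E2F genes, which encode the activator type of E2F, did not move together. E2f2 stood at 35.7, 36.5 and 34.6 CPM in Naïve, 21.4, 24.9 and 24.1 CPM in αCD3, 34.2, 41.1 and 41.9 CPM in IFNγ and 29.5, 24.8 and 27.9 CPM in LPS. It fell in αCD3 (-0.60 ± 0.10, adjusted p = 0.000771) and LPS (-0.38 ± 0.10, adjusted p = 0.00855), in both without overlap with Naïve. E2f3 was low, at 2.78, 1.25 and 2.78 CPM in Naïve, 3.77, 6.37 and 2.33 CPM in αCD3, 1.86, 1.15 and 1.46 CPM in IFNγ and 4.70, 5.54 and 4.74 CPM in LPS. It rose 2.17-fold in LPS (1.12 ± 0.38, adjusted p = 0.0294), a call that was lost without Naïve replicate 2, LPS replicate 2 or LPS replicate 3 (adjusted p up to 0.0893), without the 4 libraries numbered 1 (0.0563) and with library size alone, and the αCD3 libraries, which ranged over the levels of both Naïve and LPS, gave 0.85 ± 0.37, adjusted p = 0.0957. E2f1 stood at 6.53, 5.78 and 7.38 CPM in Naïve, 6.31, 6.86 and 6.68 CPM in αCD3, 3.72, 4.77 and 5.16 CPM in IFNγ and 7.15, 8.90 and 10.9 CPM in LPS. All IFNγ libraries were below Naïve (-0.53 ± 0.19, adjusted p = 0.0936) and the LPS mean was above it (0.46 ± 0.18, adjusted p = 0.0569), and with the block the adjusted p was 0.0276 in IFNγ and 0.0251 in LPS.

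Of the 10 licensing genes, 6 rose and none was called lower in LPS, beside 26.9% and 22.3% of all genes. Among the 6, Mcm4 kept its call in only 5 of 18 refits. In LPS none of the 10 had an unadjusted p under 0.05 for a decrease and DESeq2 called none lower, although the block called Cdt1 lower. Without the block 3 of 10 rose and 1 fell in αCD3 and 1 of 10 rose in IFNγ. Mcm6 encodes a subunit of the MCM helicase that is loaded on origins. It stood at 106, 98.2 and 107 CPM in Naïve, 175, 197 and 184 CPM in αCD3, 143, 144 and 149 CPM in IFNγ and 131, 150.2 and 150.3 CPM in LPS. No treated library overlapped with Naïve, and the increase was 0.84 ± 0.07, adjusted p = 1.77e-05 in αCD3, 0.49 ± 0.07, adjusted p = 0.00187 in IFNγ and 0.47 ± 0.07, adjusted p = 0.000381 in LPS. None of the other MCM subunits was called in IFNγ. Their differences from Naïve were -0.31 ± 0.11 for Mcm2, -0.00 ± 0.07 for Mcm3, 0.01 ± 0.10 for Mcm4, -0.22 ± 0.21 for Mcm5 and -0.11 ± 0.08 for Mcm7, of which Mcm2 had an adjusted p of 0.0108 with the block.

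In αCD3, Mcm2 (0.45 ± 0.11, adjusted p = 0.00935) and Mcm3 (0.33 ± 0.07, adjusted p = 0.00429) rose as well, and in LPS Mcm2 (0.47 ± 0.11, adjusted p = 0.00555), Mcm3 (0.58 ± 0.07, adjusted p = 8.32e-05) and Mcm4 (0.25 ± 0.10, adjusted p = 0.0488). The Mcm4 call was lost in 13 of 18 refits with other settings or fewer libraries, among them those without Naïve replicate 1 or 2, αCD3 replicate 2 or 3, any IFNγ replicate, or LPS replicate 2 or 3 (adjusted p up to 0.199), and that with library size alone, where the log2 fold change was 0.04 and the adjusted p 0.722. Mcm5 and Mcm7, subunits of the same helicase, were not called without the block, which called Mcm5 higher in αCD3 (adjusted p = 0.0427). Their values were 0.37 ± 0.21, adjusted p = 0.18 and 0.04 ± 0.07, adjusted p = 0.691 in αCD3 and 0.22 ± 0.21, adjusted p = 0.406 and 0.10 ± 0.08, adjusted p = 0.3 in LPS. Words of 31 bases shared with Gm5487 and Ap4m1 leave 66.6% of the Mcm7 sequence its own, so its level is less certain.

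Orc1 and Orc6 encode parts of the origin recognition complex. Orc1 stood at 1.95, 1.88 and 2.60 CPM in Naïve, 2.57, 3.72 and 2.50 CPM in αCD3, 2.35, 2.39 and 1.65 CPM in IFNγ and 4.90, 3.53 and 5.71 CPM in LPS. The LPS libraries lay above all Naïve and IFNγ libraries, with 1.13 ± 0.26, adjusted p = 0.00434, while αCD3 gave 0.44 ± 0.26, adjusted p = 0.205. Orc6 rose in LPS from a mean of 14.6 ± 1.28 CPM to 24.3 ± 3.22 CPM (SD, n = 3). Its log2 fold change was 0.73 ± 0.16. Cdc6 and Cdt1 encode the factors that bring the helicase to the origin. Cdc6 differed from Naïve by 0.75 ± 0.38, adjusted p = 0.124 in LPS, with an adjusted p of 0.00524 under the block. Cdt1 fell in αCD3 (-0.28 ± 0.09, adjusted p = 0.036), a call lost without Naïve replicate 1 or 3 or αCD3 replicate 2 or 3 (adjusted p up to 0.124), and its difference was -0.28 ± 0.09, adjusted p = 0.085 in IFNγ and -0.17 ± 0.09, adjusted p = 0.156 in LPS, where the block gave 0.011 and 0.0453.

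Of the 6 helicase activation genes, which encode Mcm10, Cdc45 and the 4 GINS subunits, none was called in αCD3 or IFNγ. In both comparisons none had an unadjusted p under 0.05, and DESeq2 made no call. Mcm10 was called higher in LPS, with 1.00 ± 0.30, adjusted p = 0.0177. It stood there at 5.72, 11.4 and 9.57 CPM beside 3.56, 4.69 and 5.20 CPM in Naïve, and the call was lost without Naïve replicate 1, LPS replicate 2 or LPS replicate 3 (adjusted p up to 0.0787). The other 5 differed from Naïve by between -0.35 and 0.53 in LPS, of which Gins1 was called higher with the block (adjusted p = 0.0384). Gins2 (-0.35 ± 0.14, adjusted p = 0.0635) was called lower in 5 of 18 refits, among them those with library size alone and without Naïve replicate 1, and Gins4 lay between 32.6 and 38.3 CPM over all 12 libraries. Of the Gins2 sequence, only 33.8% of the 31-base words are its own, the rest being shared with Gse1 on the opposite strand.

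Of the 4 nucleotide supply genes, 1 was called in each treatment, and with the block Rrm1 was called higher in all 3. Tk1 encodes thymidine kinase of the salvage pathway. It stood at 52.4, 42.5 and 40.9 CPM in Naïve, 38.1, 36.5 and 36.1 CPM in αCD3, 21.7, 26.0 and 29.5 CPM in IFNγ and 66.1, 53.6 and 49.8 CPM in LPS. All IFNγ libraries were below every other library, and Tk1 fell there by log2 0.82 (SE 0.14, adjusted p = 0.0035), while αCD3 gave -0.30 ± 0.14, adjusted p = 0.106 and LPS 0.32 ± 0.14, adjusted p = 0.0748. Tyms, which encodes thymidylate synthase of the de novo pathway, rose in LPS (0.68 ± 0.17, adjusted p = 0.0075), with 11.95, 18.8 and 19.3 CPM against 10.5, 9.38 and 11.4 CPM in Naïve. Rrm1 and Rrm2 encode the subunits of ribonucleotide reductase. Rrm1 rose in αCD3 (0.28 ± 0.10, adjusted p = 0.0424), a call lost in 11 of 18 refits, among them those without Naïve replicate 1 or 2, αCD3 replicate 2 or 3, IFNγ replicate 2 or 3, or LPS replicate 3 (adjusted p up to 0.158). The block gave Rrm1 an adjusted p of 0.00103 in αCD3, 0.026 in IFNγ and 0.00387 in LPS. Rrm2 was not called, with -0.19 ± 0.23 in αCD3, 0.03 ± 0.23 in IFNγ and 0.01 ± 0.23 in LPS.

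After Ccnd2, the largest increase in αCD3 and in LPS was that of Ung, the uracil-DNA glycosylase that removes uracil from DNA (chromosome 5, 114130386 to 114139323, plus strand). It stood at 10.9, 12.1 and 11.9 CPM in Naïve, 25.0, 34.2 and 31.6 CPM in αCD3, 13.0, 9.64 and 12.9 CPM in IFNγ and 32.8, 39.3 and 33.8 CPM in LPS. The αCD3 and LPS libraries exceeded all Naïve and IFNγ libraries, and the increase was 2.59-fold in αCD3 (1.38 ± 0.15, adjusted p = 5.45e-05) and 3.04-fold in LPS (1.60 ± 0.15, adjusted p = 1.28e-05), beside 0.03 ± 0.15, adjusted p = 0.925 in IFNγ. Pcna, which encodes the sliding clamp of the replication fork, rose in αCD3 (0.68 ± 0.09, adjusted p = 0.000167) and LPS (0.54 ± 0.09, adjusted p = 0.000475). Its mean was 173 ± 9.38 CPM in Naïve, 278 ± 19.1 CPM in αCD3, 180.4 ± 15.8 CPM in IFNγ and 252 ± 18.1 CPM in LPS (SD, n = 3). With 114 CPM per kilobase of transcript, Pcna had the highest Naïve level of the 44 members on this scale, and E2f3 with 0.445 the lowest. Uhrf1, a reader of DNA methylation at the fork, rose in LPS (0.44 ± 0.15, adjusted p = 0.0261), a call lost without Naïve replicate 1 or 2 or LPS replicate 2 or 3 (adjusted p up to 0.0958) and with library size alone (0.168). With the block it was also higher in αCD3 (adjusted p = 0.0171). Chaf1a, a histone chaperone subunit, differed from Naïve by between -0.13 and 0.26. Own 31-base words made up 76.7% of the Pcna, 75.8% of the Uhrf1 and 49% of the Chaf1a sequence, which share words with Pcna-ps2, with Gm5648 and with Ubxn6 on the opposite strand, among other annotated genes.

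**Figure D3:**
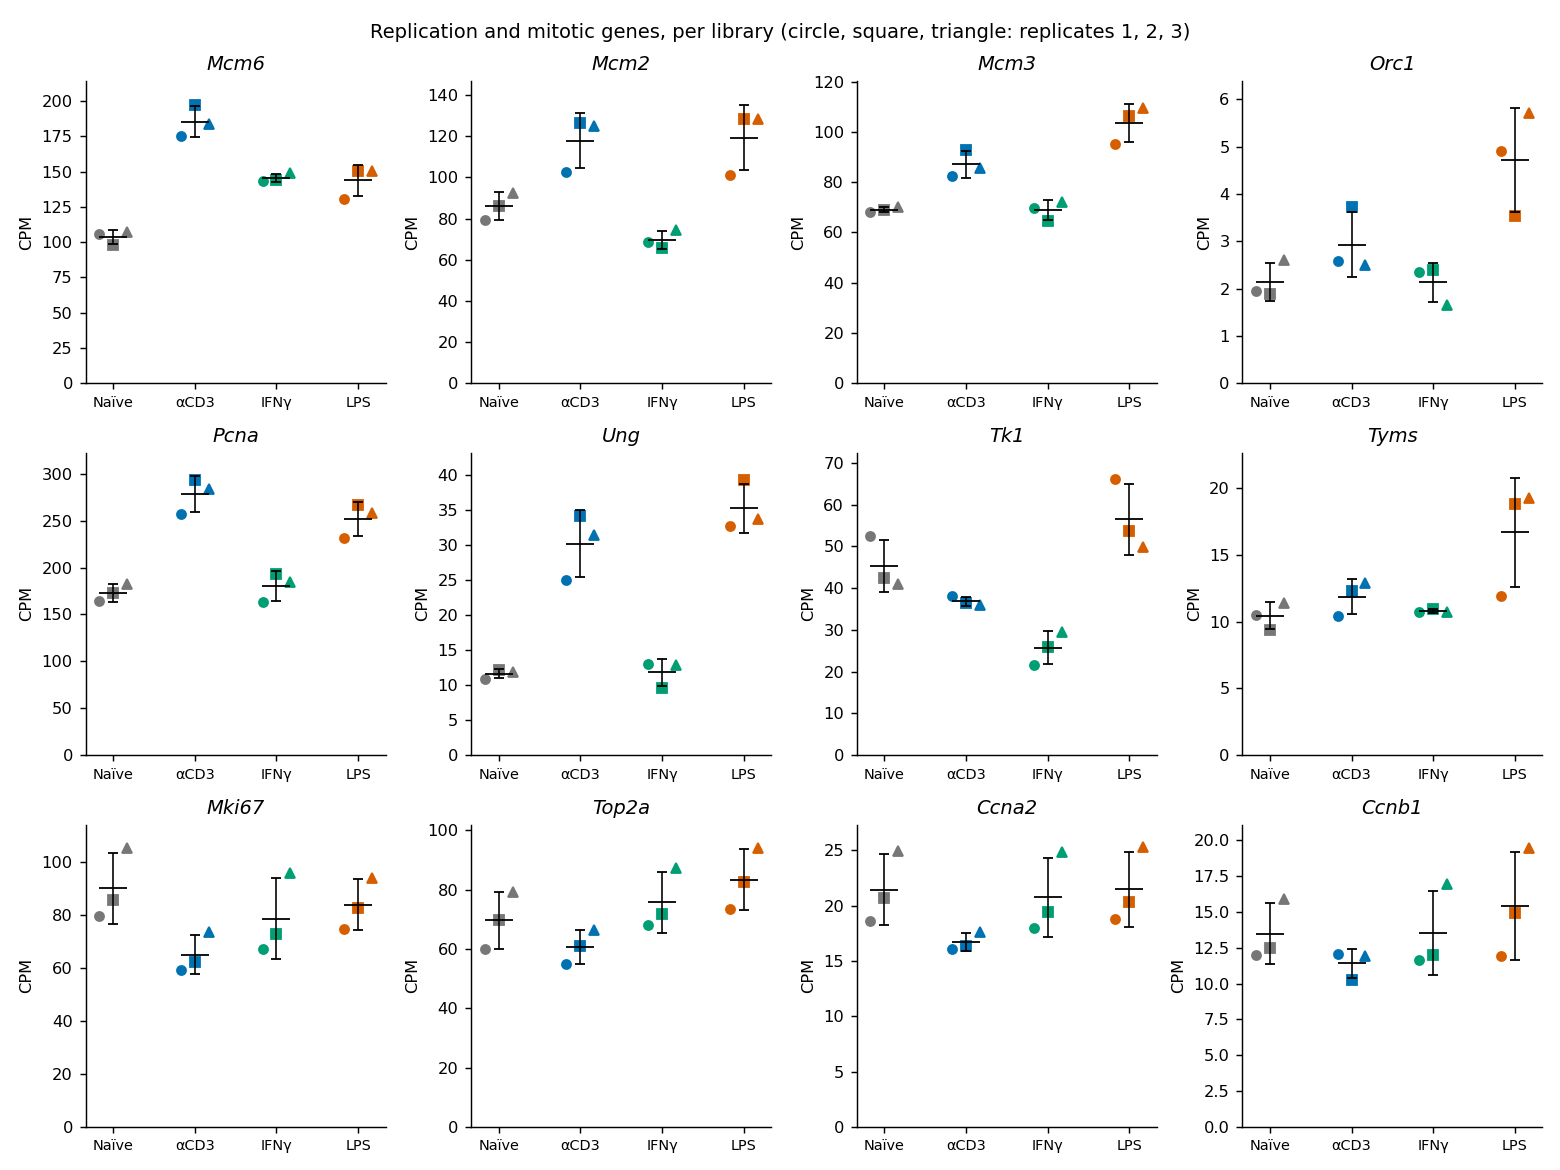
Level in CPM (y axis, from 0) of 12 replication and mitotic genes in each library of the 4 groups, with group mean and SD of 3 libraries. Ung and Pcna stand above Naïve in αCD3 and LPS, Tk1 stands below it in IFNγ, and in the mitotic genes Mki67, Top2a and Ccna2 replicate 3 (triangle) is the highest of each group.

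Of the 5 mitotic and proliferation markers, none was called higher against Naïve and 1 was called lower, in αCD3. In IFNγ and LPS none had an unadjusted p under 0.05, and DESeq2 made no call there. Mki67 encodes the proliferation antigen Ki-67 and stood at 79.5, 85.5 and 105 CPM in Naïve, 59.3, 62.3 and 73.5 CPM in αCD3, 67.3, 72.7 and 96.0 CPM in IFNγ and 74.9, 82.7 and 94.0 CPM in LPS. All αCD3 libraries lay below all Naïve libraries, and the decrease was -0.47 ± 0.15, adjusted p = 0.0309. This call was lost without Naïve replicate 2 or 3 or αCD3 replicate 1 or 2 (adjusted p up to 0.123) or the 4 libraries numbered 1 (0.0554), and with the block it stood at 3.88e-05 in αCD3 and 0.0167 in IFNγ. Top2a, a topoisomerase of S phase and mitosis, stood at 60.0, 69.6 and 79.4 CPM in Naïve, 54.8, 61.0 and 66.3 CPM in αCD3, 68.1, 71.8 and 87.3 CPM in IFNγ and 73.6, 82.5 and 94.2 CPM in LPS. Each treated group overlapped with Naïve, with -0.20 ± 0.13, adjusted p = 0.26 in αCD3 and 0.26 ± 0.13, adjusted p = 0.126 in LPS, and the block gave 0.0062 and 0.000756.

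Ccna2 and Ccnb1 encode cyclins A2 and B1, and Cdk1 their kinase in mitosis. Ccna2 stood at 18.7, 20.7 and 25.0 CPM in Naïve, 16.1, 16.4 and 17.6 CPM in αCD3, 18.0, 19.4 and 24.8 CPM in IFNγ and 18.8, 20.3 and 25.3 CPM in LPS. The αCD3 libraries were below Naïve (-0.36 ± 0.15, adjusted p = 0.085, and 0.00503 with the block), and the LPS difference was 0.01 ± 0.15. Ccnb1 stood at 11.99, 12.5 and 15.9 CPM in Naïve, 12.1, 10.3 and 11.9 CPM in αCD3, 11.7, 12.02 and 16.9 CPM in IFNγ and 11.95, 15.0 and 19.5 CPM in LPS. Its groups overlapped throughout, and 72.2% of its 31-base words are its own. Cdk1 stood at 7.99, 9.07 and 10.8 CPM in Naïve, 7.44, 8.60 and 9.18 CPM in αCD3, 8.09, 7.96 and 10.9 CPM in IFNγ and 9.09, 14.4 and 14.1 CPM in LPS. LPS replicates 2 and 3 exceeded all Naïve libraries, with 0.44 ± 0.20, adjusted p = 0.0937 overall and 0.0185 with the block. The markers were thus measured in untreated cells too, at 178 to 236 CPM summed over the 5, beside 149.8 to 179 CPM in αCD3. The plasmablast and germinal centre, B cell and myeloid sums were each lower in every αCD3 library than in every Naïve library. Of their tested markers 5 of 7, 5 of 10 and 5 of 13 were called lower, beside 15.7% of all genes. The T cell and NK cell sums were higher in every αCD3 library than in every Naïve library. The part of any of these cells in the mitotic values was not tested.

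The replicate numbers left a mark on many members. In 17 of 44 (38.6%) replicate 1 held the lowest level in all 4 groups, beside 15.3% of the 12122 genes tested, and these include Ccnd2, Cdkn1a, Mki67, Top2a and Ccna2. In 9 members (20.5%) replicate 3 held the highest level in all 4 groups, beside 3.13% of all genes, among them Mki67, Top2a, Ccna2, Rrm2 and Cdkn2c. Cdk2 and Cdkn1b were highest in replicate 1 of each group. Beside this, the erythroid, myeloid and NK cell sums were lowest in replicate 1 of each group, and the part of these cells in the members' levels was not tested.

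**Figure D4:**
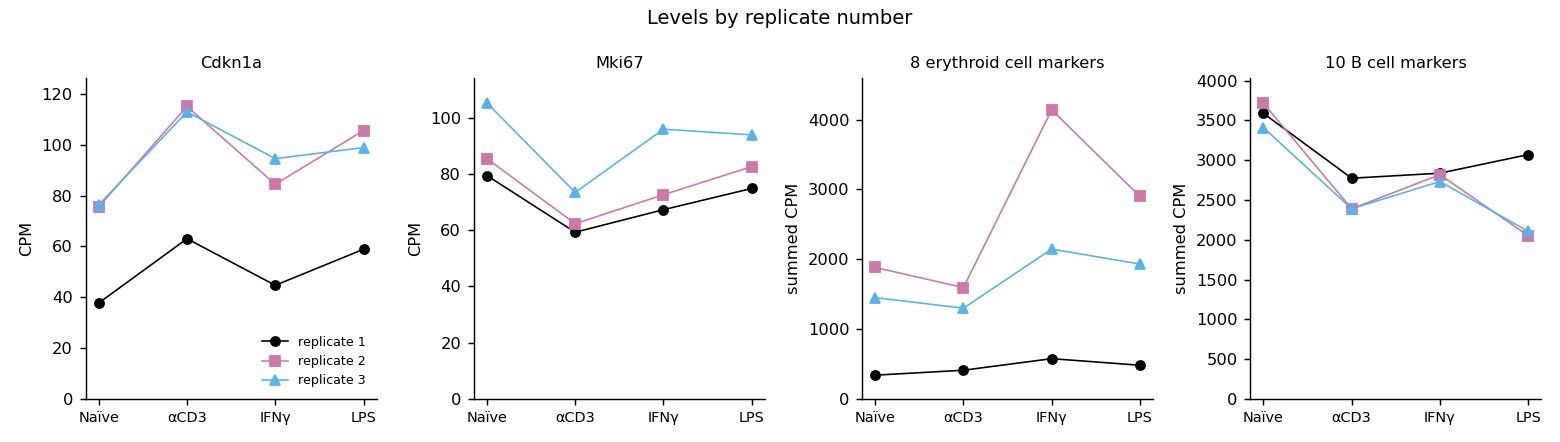
Levels of Cdkn1a and Mki67 (CPM) and summed levels of 8 erythroid and 10 B cell markers (CPM) by group, where lines join the libraries with the same replicate number. Replicate 1 lies lowest in Cdkn1a and in the erythroid sum of each group, and replicate 3 lies highest in Mki67.

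The treatments were then compared with each other. IFNγ against αCD3 gave 4 members higher (9.09%) and 13 lower (29.5%), beside 15.8% and 21.4% of all genes, and IFNγ against LPS gave 5 higher (11.4%) and 15 lower (34.1%), beside 18% and 22.4%. Higher in IFNγ were Cdkn1b, E2f2, Ccnd3 and Rbl2 against αCD3, and Rbl2, Cdkn1b, Cdkn2c, E2f2 and Rb1 against LPS. Lower in IFNγ were E2f3, Ung, Cdk4, Mcm2, Pcna, Mcm5, E2f1, Tk1, Cdk6, Uhrf1, Cdk2, Mcm6 and Mcm3 against αCD3, and E2f3, Ung, Ccnd2, Orc1, Tk1, Cdk4, E2f1, Cdk6, Mcm2, Orc6, Uhrf1, Tyms, Mcm3, Pcna and Mcm7 against LPS. Both comparisons share the IFNγ libraries. The block added Rb1, Mki67, Top2a and Ccna2 (higher) and Ccnd2 and Cdkn1a (lower) against αCD3, and Cdk2, Cdkn1a, Mcm4, Mcm5, Mcm10, Cdc45, Gins1, Top2a and Cdk1 (lower) against LPS. The median log2 fold change of the members was -0.11 against αCD3 and -0.24 against LPS, where that of all genes was 0.03 and 0.04. Cdk4 differed by -0.99 ± 0.13, adjusted p = 0.000176 from αCD3 and by -1.09 ± 0.13, adjusted p = 6.72e-05 from LPS, and Cdkn1b by 1.00 ± 0.19, adjusted p = 0.00178 and 0.71 ± 0.19, adjusted p = 0.0114. E2f1 was lower in IFNγ than in LPS (-0.99 ± 0.19, adjusted p = 0.00165), and against αCD3 its call (-0.54 ± 0.19, adjusted p = 0.0421) was lost in 11 of 18 refits. Ccnd2 was lower in IFNγ than in LPS (-1.51 ± 0.33, adjusted p = 0.0039), while its difference from αCD3 was -0.41 ± 0.32, adjusted p = 0.35 and, with the block, 0.0149.

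Some of these calls lay near the threshold and were lost when 1 library was left out, while the direction stayed. Of 18 refits, 10 lost the call of Mcm5 against αCD3, 8 that of Rb1 and 12 that of Mcm7 against LPS, among them those without IFNγ replicate 1, LPS replicate 2 or LPS replicate 3 for Rb1 (adjusted p up to 0.164), without any IFNγ replicate or αCD3 replicate 2 or 3 for Mcm5 (up to 0.159), and without IFNγ replicate 2 or 3 or any LPS replicate for Mcm7 (up to 0.155). Against αCD3, the call was lost for Cdk2 without αCD3 replicate 1 or 3 or IFNγ replicate 2 or 3 (up to 0.11), for Rbl2 without αCD3 replicate 2 or 3 or IFNγ replicate 1 (up to 0.0798), for E2f3 without αCD3 replicate 2 or IFNγ replicate 2 (up to 0.0566), and for Uhrf1 without Naïve replicate 2, αCD3 replicate 2 or 3, IFNγ replicate 1 or 2 or LPS replicate 2 (up to 0.133). Against LPS, it was lost for Cdkn2c without IFNγ replicate 2 or 3 or LPS replicate 2 (up to 0.0873) and for Tyms without LPS replicate 2 or 3 (up to 0.0594).

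Between αCD3 and LPS, 1 member was higher in αCD3 (2.27%) and 6 lower (13.6%), beside 9.63% and 9.76% of all genes. Mcm6 was higher in αCD3 (0.37 ± 0.07, adjusted p = 0.00539). Lower in αCD3 were Ccnd2 (-1.11 ± 0.32, adjusted p = 0.0362), Tk1 (-0.61 ± 0.14, adjusted p = 0.0102), Top2a (-0.46 ± 0.13, adjusted p = 0.034), Cdk6 (-0.44 ± 0.11, adjusted p = 0.019), Ccnd3 (-0.41 ± 0.11, adjusted p = 0.026) and Mcm3 (-0.25 ± 0.07, adjusted p = 0.0311). The calls of Ccnd2, Top2a, Cdk6, Ccnd3 and Mcm3 were each lost without αCD3 replicate 1 and likewise without LPS replicate 3 (adjusted p up to 0.13). The total was 3 (6.82%) without αCD3 replicate 1, LPS replicate 2 or LPS replicate 3, beside 14.9%, 11.6% and 12.2% of all genes. Without LPS replicate 1 it was 13 (29.5%, beside 21% of all genes). With the replicate block 19 members (43.2%, beside 34.6% of all genes) were called, 3 higher and 16 lower, where Rbl2 and Pcna joined the higher and Cdkn1b, E2f1, Orc6, Mcm10, Cdc45, Tyms, Mki67, Ccna2, Ccnb1 and Cdk1 the lower members, and with library size alone the split was 3 higher and 3 lower.

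Other genes of the same pathways were read from lists kept apart from the 44. Their counts stand beside 22.9% of all genes called higher and 15.7% lower in αCD3, 8.17% and 4.27% in IFNγ, and 26.9% and 22.3% in LPS, and were not tested against these shares. A gene said to move most in a list is the one with the largest change among those called. Of 18 other G1 regulators, 5 rose and 2 fell in αCD3, 1 rose in IFNγ, and 6 rose and 1 fell in LPS, that is 27.8%, 5.56% and 33.3% higher and 11.1%, 0% and 5.56% lower. In the direct comparisons 3 were higher and 4 lower in IFNγ than in αCD3, 3 higher and 6 lower in IFNγ than in LPS, and none higher and 3 lower in αCD3 than in LPS. All genes were called higher and lower in 15.8% and 21.4%, 18% and 22.4%, and 9.63% and 9.76% of cases in these comparisons. Rbl1, which encodes the pocket protein p107, was the one that edgeR called in IFNγ, where DESeq2 called 2, with 1.77 ± 0.19, adjusted p = 0.000475. It rose in αCD3 by 0.62 ± 0.19, adjusted p = 0.0264 and in LPS by 1.05 ± 0.19, adjusted p = 0.00127, and stood at a mean of 61.1 CPM in Naïve, 94.0 CPM in αCD3, 208 CPM in IFNγ and 126 CPM in LPS. Cdkn2d, which encodes the CDK4 inhibitor p19, fell most in αCD3, with -1.08 ± 0.27, adjusted p = 0.00925. Tfdp1, the partner of E2F in DNA binding, was lower in IFNγ than in αCD3 (-1.84 ± 0.43, adjusted p = 0.00682) and LPS (-1.75 ± 0.43, adjusted p = 0.00848), and Cdkn2b, which encodes p15, was lower in αCD3 than in LPS (-1.26 ± 0.22, adjusted p = 0.00271).

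Of 40 other replication genes, 10 rose and 2 fell in αCD3, 2 rose and 1 fell in IFNγ, and 10 rose and 6 fell in LPS, that is 25%, 5% and 25% higher and 5%, 2.5% and 15% lower. Pold2, a subunit of DNA polymerase delta, rose most in αCD3 (0.96 ± 0.11, adjusted p = 6.66e-05) and in LPS (1.32 ± 0.11, adjusted p = 5.88e-06), and Rfc3, a subunit of the clamp loader, rose most in IFNγ (1.28 ± 0.30, adjusted p = 0.0197). Direct comparisons gave 1 higher and 7 lower in IFNγ than in αCD3, 1 higher and 9 lower in IFNγ than in LPS, led by Pold2 (-1.06 ± 0.11, adjusted p = 2.03e-05), and 3 higher and 2 lower in αCD3 than in LPS, led by Pold1, the catalytic subunit (0.56 ± 0.12, adjusted p = 0.00872).

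Of 25 other mitotic genes, none rose and 6 fell in αCD3, none was called in IFNγ, and 1 rose and 2 fell in LPS. At an unadjusted p under 0.05 the IFNγ counts were 2 higher and 2 lower and the αCD3 counts none higher and 12 lower, and DESeq2 called none in IFNγ and 8 lower in αCD3. The median log2 fold change of this list was -0.32 in αCD3, -0.11 in IFNγ and -0.11 in LPS. Ndc80, a kinetochore protein, fell most among the called genes in αCD3 (-0.83 ± 0.19, adjusted p = 0.00692), while the lowest value in the list, of a gene not called, was -0.93. It was higher in IFNγ than in αCD3 (1.08 ± 0.20, adjusted p = 0.0014), where 6 genes were higher and none lower. Mybl2, a transcription factor of the late cell cycle, was the one that rose in LPS (1.97 ± 0.19, adjusted p = 1.77e-05), with a mean of 29.9 CPM against 7.65 CPM in Naïve, 9.58 CPM in IFNγ and 7.30 CPM in αCD3. Mybl2 was lower than in LPS both in IFNγ (-1.65 ± 0.19, adjusted p = 5.54e-05), where 3 others were higher, and in αCD3 (-2.05 ± 0.19, adjusted p = 5.72e-05), where no other was called.

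Since Cdkn1a is a p53 target, 11 other targets of p53 were listed, of which 10 passed the filter. In αCD3 and in LPS 5 of the 10 rose and none fell, and in IFNγ 1 rose and 1 fell. All genes were called higher and lower in 22.9% and 15.7% in αCD3, 26.9% and 22.3% in LPS, and 8.17% and 4.27% in IFNγ. Phlda3, an inhibitor of AKT, rose most in αCD3 (2.60 ± 0.20, adjusted p = 8.64e-06), from a mean of 3.80 CPM to 23.1 CPM, and Aen, a nuclease, rose most in LPS (1.31 ± 0.12, adjusted p = 1.22e-05). Sesn2, a stress-induced gene, fell in IFNγ (-0.49 ± 0.11, adjusted p = 0.0137). Phlda3 was also lower in IFNγ than in αCD3 (-2.79 ± 0.20, adjusted p = 6.53e-06) and LPS (-1.06 ± 0.20, adjusted p = 0.00178), where 6 and 4 genes were lower and 1 and 2 higher, and was higher in αCD3 than in LPS (1.73 ± 0.19, adjusted p = 0.000173), where 4 genes were higher and none lower.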

How the data were processed

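Poly(A) RNA of 12 libraries (Naïve, αCD3, IFNγ and LPS, 3 each, placed by the labels alone) was sequenced. The authors pseudo-aligned reads with Kallisto to mouse mm10 and deposited estimated counts (expected counts) per gene symbol, without scaling. The Kallisto version, transcript annotation and strand setting are not given in the sources used here, and reads shared between transcripts are divided by estimation. DESeq2 1.24.0 is named in the submitters' processing notes.

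Here the deposited counts were rounded and tested in R 4.3.3 with edgeR 4.0.16, by its quasi-likelihood F-test (TMM factors, filterByExpr, robust glmQLFit), in a single fit over the 12 libraries with group as the term. The filter left 12122 of 20778 genes. Benjamini-Hochberg adjustment ran over all of these, and genes with an adjusted p under 0.05 are referred to as called. Adjusted p-values in the text come from this test, from the same test with the replicate number as a block, or from the refits named. Log2 fold changes carry their standard error, and CPM values use TMM-scaled library sizes. On counts simulated for αCD3 against Naïve over 11986 tested genes, 78% of genes raised by log2 1 and 57.4% of genes lowered by log2 1 were called. The simulation left 11790 genes unchanged and held no effect of the replicate number. In both it differs from the data, so that these rates need not hold for the fit of the data.

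The 44 members and the other lists were chosen with earlier results of these data known. By rule, values in every library are given for the G1 genes, inhibitors, pocket proteins, E2F factors and mitotic markers, and for the 5 called members with the largest change per treatment. Other members named singly, and those of the other lists beyond the most changed one, were picked once the values were known. The values of 1 gene are not reported here. The replicate numbers were taken to pair the libraries, since in all 18 pairs of libraries with the same number in different groups the deviations from the group means correlated above 0.1 (0.117 to 0.401, median 0.187), against -0.354 to 0.102 in the 36 pairs with different numbers. As deviations within a group sum to 0, positive values in the first set of pairs entail negative ones in the second. Of the 36 pairs, 2 also lay above 0.1. The main fit was unpaired all the same, and results with the block are given beside it. The labels say nothing of what a number shares.

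Refits with DESeq2 size factors, library size alone, no filter, the DESeq2 1.42.0 test, the replicate block, each library left out and, added after seeing the data, the 4 libraries numbered 1 left out made 18 refits. Coordinates, transcript lengths and shared 31-base words come from GENCODE M21 (GRCm38), and promoters from RefSeq (GRCm38.p6).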

Additional observations from a re-analysis of the deposited data

How the results depend on the processing

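No call among the members changed direction in the 18 refits. Over all members, comparisons and refits, 4481 results kept their side of the threshold, 154 called results lost it and 117 uncalled results gained it. Members called in IFNγ against Naïve numbered 4, and 8 with library size alone, 11 with the replicate block and 3 to 8 with libraries left out, while the share of all genes called went from 12.4% to 18.8% with library size alone and to 24.9% with the block. The 8 (18.2%) without the 4 libraries numbered 1 stood beside 23.3% of all genes. Where 3 were called, all genes called numbered from 787 of 12329 (without IFNγ replicate 2) to 1164 of 12312 (without Naïve replicate 1). Members called in αCD3 against LPS numbered 7, and 19 with the replicate block and 3 to 13 with libraries left out, where the lowest value was reached without αCD3 replicate 1, LPS replicate 2 or LPS replicate 3 and the highest without LPS replicate 1. The share of all genes went there from 19.4% to 34.6% with the block. In the refits with 3 members called (6.82%) it was 14.9%, 11.6% and 12.2% in the order named. In the refit with 13 (29.5%) it was 21%. In the other 4 comparisons the total count stayed within 1.5 times its value in every refit, the block included. Counts by direction moved further. Lower calls in αCD3 against Naïve went from 8 to 4 without αCD3 replicate 2. In IFNγ against αCD3, lower calls went from 13 to 8 without IFNγ replicate 2, and higher calls from 4 to 8 with the block. In IFNγ against LPS, higher calls went from 5 to 3 without LPS replicate 2, and lower calls from 15 to 24 with the block. The block, which pairs libraries by their number, lost no call. The cause of these differences was not tested. E2f3, Orc1, Gins1, Cdc6 and Mcm10 had the lowest mean CPM of the members, and their standard errors of 0.26 to 0.40 on the log2 scale limit what could be detected.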
